A study of Mus musculus with 6 samples.

Results

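The genes described here are the 9 secreted enzymes and helper proteins that finish a collagen fibre outside the cell: the procollagen proteinases Bmp1 and Adamts2, the enhancers Pcolce and Pcolce2, and the lysyl oxidases Lox, Loxl1, Loxl2, Loxl3 and Loxl4. They were taken by symbol from the 31053 genes that each library lists, and all 9 were found. Their UMIs (unique molecular identifiers, each marking 1 captured RNA molecule) were followed through 6 libraries of single cells, in classes of cells set by marker genes that include none of the 9. After infarction of the heart, fibroblast-like cells carried 44.7-fold more Lox RNA than in sham hearts, while Pcolce2 was 2.44-fold lower. Pericyte-like cells of the infarcted brain held 6.07-fold more Bmp1 and 3.13-fold more Loxl2 than those of sham brain, with 17 UMIs of Lox and 12 of Loxl1 in all. The Loxl2 ratio fell under 2-fold only when smooth-muscle-like cells were merged in, 166 in sham brain and 3 in infarcted brain.

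All libraries came from mice of the genotype Tbx18CreER/+;Rosa26tdT/+, in which tamoxifen lets a Cre recombinase made from the Tbx18 locus switch on the red protein tdTomato. The Tbx18 protein regulates transcription and is found in mural cells, the pericytes and smooth muscle around vessels; the sorted cells also held fibroblast-, mesothelial- and endothelial-like cells. Tamoxifen was injected on 4 days and followed by a washout of a week. The heart groups are the infarct area of the left ventricle and the peri-infarct area without atria, both after LAD ligation (tying off a coronary artery), and ventricles after sham surgery. The brain groups are the necrotic core of a photothrombotic stroke, the tissue around it, and brain after sham surgery. Heart was digested with collagenase and dispase and cortex with a brain dissociation kit, so tissue handling differs between organs. Each of the 6 groups has 1 library of tdTomato-sorted cells. The age of the mice, the time after injury and the number of animals pooled are not given in the sources used here. No difference below has a replicate check, and no test across samples was possible. Intervals in brackets after a value are exact 95% intervals that cover counting error only.

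Depth differed greatly between groups. The infarct, peri-infarct and sham libraries held 107892408, 95248788 and 32194158 UMIs in heart and 54810989, 11796570 and 12311632 UMIs in brain, and the median cell kept had 10858, 8976.5 and 1408 UMIs in heart and 26159, 2944 and 3374 UMIs in brain. A cell joined a class when it showed at least 3 markers of that class and at least 2 more than of any other, which left 8.34% of the heart infarct cells, 10.73% of the heart peri-infarct cells and 37.37% of the heart sham cells in no class, against 9.464%, 20.91% and 15.12% of the brain infarct, peri-infarct and sham cells. The fibroblast-like class held 5716, 4639 and 5007 cells of heart infarct, peri-infarct and sham, and 1189, 206 and 205 cells of the same brain groups. The pericyte-like class held 1018, 554 and 329 cells of those heart groups and 420, 1023 and 1385 of those brain groups. The smooth-muscle-like class held 446, 424 and 2861 heart cells and 98 and 166 cells of brain peri-infarct and sham, while brain infarct had 3 such cells and was left out. In heart sham, 167 of the 329 pericyte-like cells and 1364 of the 5007 fibroblast-like cells sat at the edge of the gate. Fibroblast-like cells of brain infarct met the gate with a median of 6 fibroblast and 7 activated fibroblast markers, yet the genes that stood out most in them were Epha3, Eln and Aldh1a3, with Lrrc15 the single gate marker among the leading 10. Between 24 and 204 cell barcodes were shared by any 2 libraries.

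Fibrillar collagens are secreted as procollagens with a propeptide at each end. Bmp1 (bone morphogenetic protein 1, the procollagen C-proteinase) removes the C-propeptide and also releases active lysyl oxidase from its proenzyme, Adamts2 removes the N-propeptide, and the Pcolce proteins bind the C-propeptide and speed up Bmp1. Lysyl oxidases then oxidise lysines of collagen and elastin so that neighbouring molecules crosslink, which stiffens a scar. Loxl2, Loxl3 and Loxl4 form a subgroup with scavenger receptor domains that Lox and Loxl1 lack.

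The 250 bases before the RefSeq start of 3 members (build GRCm38.p6, written 5′ to 3′ on the strand of the gene) are shown because they differ in where they were found: Pcolce2 had at most 7 UMIs in any brain class, Adamts2 was low in brain mural cells, and Pcolce was present in every stromal class of both organs. RefSeq's promoter table held 4 of the 9 members, the other being Loxl4. Capitals mark each GC box, searched as GGGCGG on both strands. The windows lie at chr5:137611405-137611654 on the minus strand for Pcolce, chr9:95637378-95637627 on the plus strand for Pcolce2 and chr11:50601835-50602084 on the plus strand for Adamts2. The RefSeq starts of Pcolce and Pcolce2 differ from those of the gene positions given below. The Pcolce window lies wholly inside the Pcolce position, and the Pcolce2 window ends inside that of Pcolce2.
Pcolce: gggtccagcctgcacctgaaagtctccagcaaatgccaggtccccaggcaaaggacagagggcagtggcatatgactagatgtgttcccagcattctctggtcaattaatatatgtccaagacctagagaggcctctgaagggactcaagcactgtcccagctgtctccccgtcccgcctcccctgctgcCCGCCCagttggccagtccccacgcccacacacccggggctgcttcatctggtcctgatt
Pcolce2: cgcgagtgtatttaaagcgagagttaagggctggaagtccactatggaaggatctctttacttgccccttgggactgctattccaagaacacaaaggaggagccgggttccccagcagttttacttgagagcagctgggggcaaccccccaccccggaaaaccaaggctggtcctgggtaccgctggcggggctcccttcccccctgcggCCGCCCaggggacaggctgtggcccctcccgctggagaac
Adamts2: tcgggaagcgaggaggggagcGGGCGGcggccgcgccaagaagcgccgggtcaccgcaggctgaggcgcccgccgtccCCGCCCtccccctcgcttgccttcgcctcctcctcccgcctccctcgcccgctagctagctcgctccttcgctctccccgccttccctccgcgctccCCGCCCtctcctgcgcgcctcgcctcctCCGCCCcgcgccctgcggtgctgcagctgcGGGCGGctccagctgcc
The Adamts2 window held 5 GC boxes, and the Pcolce2 and Pcolce windows held 1 each. Over 32851 promoter windows of the same length, 32.7% hold a GC box. GC content was 78% for Adamts2, 61.2% for Pcolce2 and 58.8% for Pcolce, against a median of 52.4% over all windows. The TATA box (TATAAA), the CCAAT box (CCAAT) and the AP-1 motif (TGANTCA), searched on both strands, had 0 matches in these windows and occur in 12.4%, 33.8% and 6.75% of all windows. No motif match overlapped another.

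**Figure D1:**
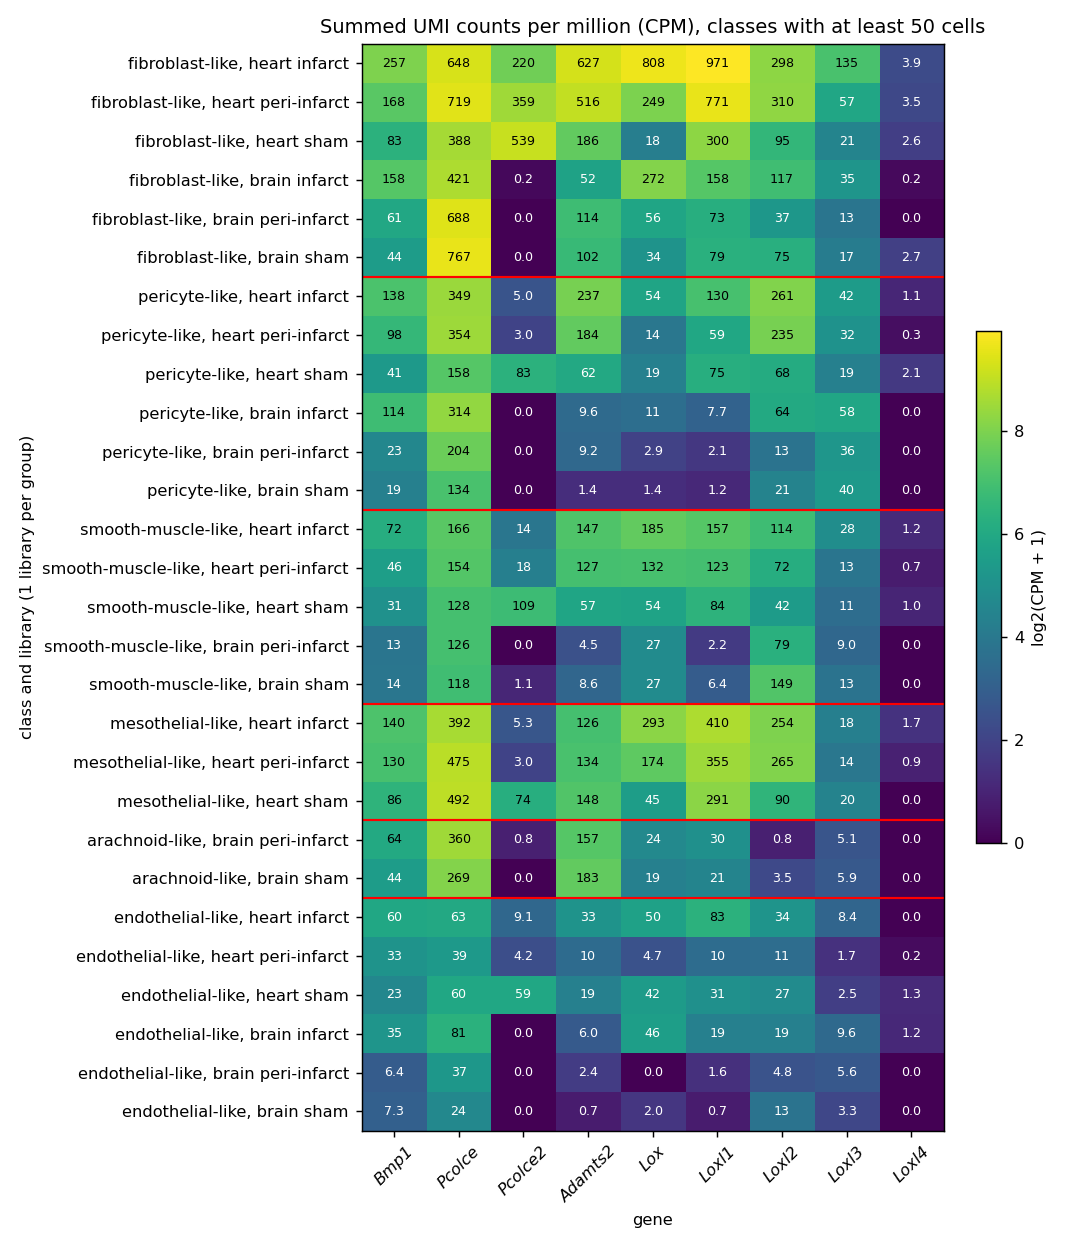
Level of each of the 9 genes (columns) in CPM (UMIs scaled to a common class total, printed in each cell, colour on a log2 scale) in every class and library with at least 50 cells for the classes shown (rows, grouped by class with infarct above peri-infarct above sham). Lox reaches 808 CPM in fibroblast-like cells of heart infarct against 18.1 CPM in those of heart sham, Pcolce2 is near 0 in all brain rows, and Loxl4 stays under 4 CPM.

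The level of a gene in a class is given in CPM, its summed UMIs scaled to a common class total. These libraries count the 3′ ends of molecules, so levels were not divided by gene length. Whether different genes are captured equally well was not tested, so orders and percentages across genes describe UMI counts. In fibroblast-like cells of heart infarct the order was Loxl1 (971 CPM), Lox (808), Pcolce (648), Adamts2 (627), Loxl2 (298), Bmp1 (257), Pcolce2 (221), Loxl3 (135) and Loxl4 (3.88). In those of heart sham Pcolce2 (539 CPM) stood first, then Pcolce (388) and Loxl1 (300), and Lox (18.1) lay next to last. In fibroblast-like cells of brain infarct Pcolce (421 CPM) and Lox (272) led. In those of brain sham Pcolce (767 CPM) was far above every other member. In brain pericyte-like cells Pcolce was also first, at 314, 204 and 134 CPM in infarct, peri-infarct and sham. Endothelial-like cells were the class set beside the stromal ones: Lox stood at 49.9, 4.67 and 42.1 CPM in those of heart infarct, peri-infarct and sham, and at 45.8, 0 and 2.003 CPM in the same brain groups. In heart sham this was above the 18.1 CPM of fibroblast-like cells and the 30.2 CPM of all kept cells.

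In fibroblast-like cells, most members were higher after heart injury, the proteinases and the lysyl oxidases alike. Of the 9 members, 8 passed the low filter (a mean of at least 10 CPM over both groups) in infarct against sham; 6 were at least 2-fold higher (Lox, Loxl3, Adamts2, Loxl1, Loxl2 and Bmp1) and Pcolce2 was lower by as much. Over all 8319 genes that passed, 5.89% were higher and 7.02% lower by that measure. In peri-infarct against sham the same 6 members were higher and 0 were lower, against 2.96% and 3.83% of all genes. Infarct exceeded peri-infarct at least 2-fold for Lox and Loxl3 alone among the 8, with 0 lower, against 1.47% and 1.4% of all genes. The heart comparisons share their libraries, so their counts are not independent. The median log2 ratio over the members that passed was 1.67 in infarct and 1.38 in peri-infarct against sham, beside 0.01 and 0.10 over all genes. The smooth muscle marker list in these fibroblast-like cells came to 1421 CPM in infarct and 705.7 CPM in peri-infarct against 3509 CPM in sham, and its part in the ratios was not tested.

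In fibroblast-like cells of brain infarct against sham, 7 members passed the filter, and Lox, Bmp1 and Loxl3 were at least 2-fold higher with 0 lower. The background there was wide, with 12.3% of genes higher and 35.6% lower. Brain infarct against peri-infarct gave 5 higher (Lox, Loxl2, Bmp1, Loxl3 and Loxl1) and 1 lower (Adamts2) of 7, against 9.91% and 22% of all genes. Brain peri-infarct against sham gave 0 members higher and 0 lower of 7, against 4.52% and 11.3% of all genes. These brain classes differed in more than the members. Ptgds, the prostaglandin D synthase of leptomeningeal cells, made 237 CPM in brain infarct and 55820 and 60120 CPM in peri-infarct and sham fibroblast-like cells, and the fibroblast marker list made 2869 CPM in infarct and 5790 and 6849 CPM in those classes. The smooth muscle marker list made 1742 CPM in brain infarct fibroblast-like cells and 165.1 and 85.86 CPM in those of peri-infarct and sham. For the pericyte marker list the values were 236.6, 2039 and 3961 CPM in the same order. The part of these genes in the ratios was not tested. Scaling with TMM factors (trimmed mean of M values) moved all ratios of brain infarct against sham up by 0.84 log2 units, and the count of higher members to 5. Loxl3 in brain infarct against sham, and Adamts2 and Loxl1 in brain infarct against peri-infarct, dropped under 2-fold in at least 1 alternative.

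**Figure D2:**
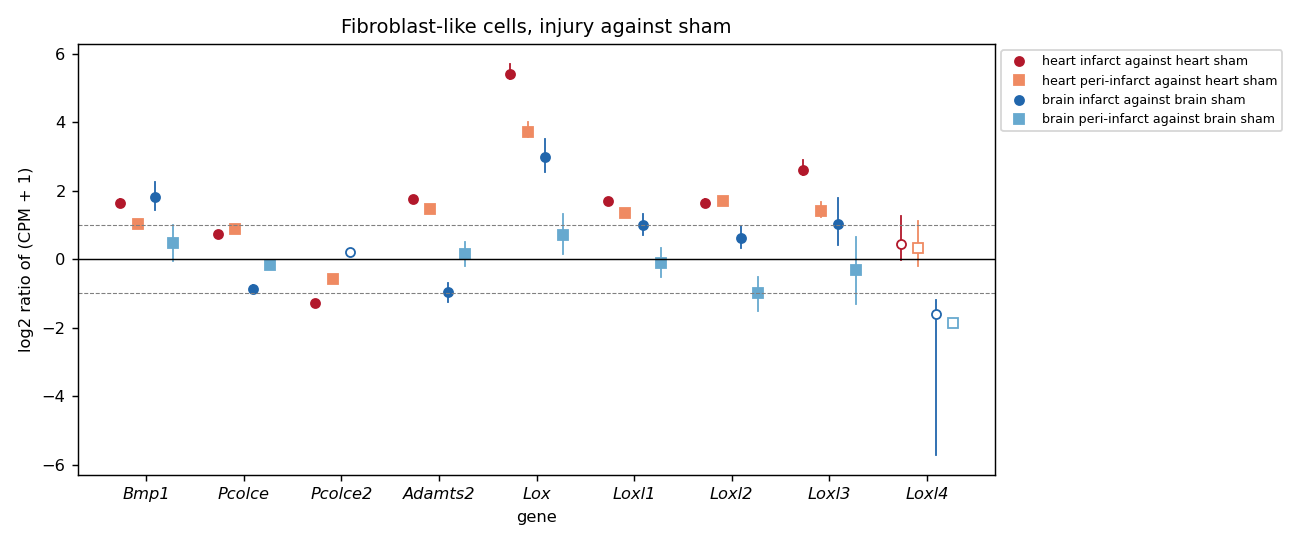
Log2 ratio of (CPM + 1) in fibroblast-like cells for each member (x axis), with infarct and peri-infarct each set against sham of the same organ. Filled symbols passed the filter, open symbols did not, vertical lines are 95% counting intervals of the ratio (drawn where both groups had UMIs), and dashed lines mark 2-fold. Lox is the highest point in heart infarct (5.41), heart peri-infarct (3.71) and brain infarct (2.98).

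Bmp1 (chr14:70474558-70520234, minus strand, mm10) was higher in infarct than in sham in fibroblast- and pericyte-like cells of both organs. In fibroblast-like cells it stood at 257 CPM in heart infarct [254 to 261] and 168 CPM in peri-infarct [165 to 172], against 82.6 CPM in sham [76.8 to 88.8]. The ratios to sham were 3.11-fold [2.89 to 3.35] and 2.04-fold [1.89 to 2.20], and the peri-infarct log2 ratio lay between 0.93 and 1.04 over the alternatives, on either side of 2-fold. The same cells of brain held 158 CPM in infarct and 61.3 CPM in peri-infarct, against 44.3 CPM in sham, where 50 UMIs were counted. Infarct was 3.56-fold above sham [2.70 to 4.80] and peri-infarct 1.38-fold [0.970 to 1.99], an interval that includes 1. Pericyte-like cells had 138 and 97.6 CPM in heart infarct and peri-infarct against 40.5 CPM in sham, and 115 and 23.3 CPM in brain infarct and peri-infarct against 18.9 CPM in sham. Brain infarct was thus 6.07-fold above sham [4.63 to 8.01], the steepest Bmp1 ratio of any class compared with sham here, while the brain peri-infarct ratio was 1.24-fold [0.861 to 1.76].

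Adamts2 (chr11:50602084-50807573, plus strand), the procollagen N-proteinase, was higher after injury in heart fibroblast- and pericyte-like cells and not in brain fibroblast-like cells. Fibroblast-like cells held 627 CPM in heart infarct and 516 CPM in peri-infarct, against 186 CPM in sham, which is 3.38-fold [3.22 to 3.55] and 2.78-fold [2.65 to 2.92]. In brain they held 51.7 CPM in infarct and 114 CPM in peri-infarct, against 102 CPM in sham. The brain infarct ratio of 0.508 [0.421 to 0.618] was just inside 2-fold, and its log2 value of -0.96 ran from -1.30 with the gate on thinned cells to -0.14 with TMM factors. Against peri-infarct the brain infarct log2 ratio was -1.12 and ran from -1.56 to -0.56 over the alternatives. Heart pericyte-like cells had 237 and 184 CPM in infarct and peri-infarct against 61.9 CPM in sham. Brain pericyte-like cells had 9.65 CPM in infarct (15 UMIs) and 9.16 CPM in peri-infarct (22 UMIs), against 1.43 CPM in sham (6 UMIs), and did not pass the filter. In brain sham the gene was 71.0-fold higher in fibroblast-like than in pericyte-like cells [31.7 to 198].

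Pcolce (chr5:137605103-137613784, minus strand) was present in all stromal classes, and its ratios to sham in fibroblast-like cells were under 2-fold. Fibroblast-like cells held 648 CPM in heart infarct and 719 CPM in peri-infarct, against 388 CPM in sham. In brain they held 421 CPM in infarct and 688 CPM in peri-infarct, against 767 CPM in sham. The brain infarct log2 ratio of -0.86 ran from -1.06 with the stricter gate to -0.03 with TMM factors. Pericyte-like cells of heart had 349 CPM in infarct and 354 CPM in peri-infarct against 158 CPM in sham, or 2.21-fold [1.75 to 2.83] and 2.24-fold [1.77 to 2.87]. Those of brain had 314 CPM in infarct against 134 CPM in sham, 2.35-fold [2.07 to 2.65]. Smooth-muscle-like cells of heart stayed at 166 and 154 CPM in infarct and peri-infarct against 128 CPM in sham. An exon of Fbxo24 overlaps Pcolce on the same strand, and Fbxo24 itself had at most 4.66 CPM in these 3 classes. Whether UMIs of the shared sequence are missing from the Pcolce count was not tested.

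Pcolce2 (chr9:95637601-95698096, plus strand), the other enhancer, was highest in fibroblast-like cells of heart. Fibroblast-like cells held 221 CPM in heart infarct and 359 CPM in peri-infarct, against 539 CPM in sham. The infarct ratio was 0.409 [0.396 to 0.423] and the peri-infarct ratio 0.667 [0.646 to 0.689], so that both injured groups lay below sham, and infarct by more than 2-fold. In brain fibroblast-like cells 7 UMIs were counted in infarct and 0 in peri-infarct and sham. Thinned to 1000 UMIs per cell, 20.8% of fibroblast-like cells had a Pcolce2 UMI in heart infarct and 29.2% in peri-infarct, against 37.8% in sham, beside 0.848%, 0.378% and 8.70% of endothelial-like cells. In pericyte-like cells 4.99 and 2.95 CPM were counted in heart infarct and peri-infarct, against 83.2 CPM in sham. The summed fibroblast marker list moved the same way in those pericyte-like cells, at 703.7 and 610.6 CPM in infarct and peri-infarct against 5540 CPM in sham, and endothelial-like cells of heart sham held 58.6 CPM of Pcolce2. Free RNA was taken as a share of each library's summed RNA, set by fibroblast markers in endothelial-like cells. With it subtracted, the pericyte Pcolce2 log2 ratio to sham went from -3.81 to -5.60 in infarct and from -4.41 to -5.60 in peri-infarct. The subtraction left no Pcolce2 in pericyte-like cells of either injured group. Both values of -5.60 are thus limits set by the added 1 CPM and not measured ratios. Beyond that subtraction, the part of these other cells' RNA in the pericyte result was not tested.

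Lox (chr18:52516067-52529867, minus strand), the founding lysyl oxidase, had the largest ratio of the members in fibroblast-like cells of heart infarct, heart peri-infarct and brain infarct against sham. It stood at 808 CPM in heart infarct [802 to 814] and 249 CPM in peri-infarct [245 to 254], against 18.1 CPM in sham [15.4 to 21.1]. That is 44.7-fold [38.3 to 52.5] and 13.8-fold [11.8 to 16.2], and infarct was 3.24-fold above peri-infarct [3.18 to 3.30]. Thinned to 1000 UMIs per cell, 43.8% of fibroblast-like cells had a Lox UMI in heart infarct and 12.7% in peri-infarct, against 1.68% in sham, beside 1.27%, 0.283% and 3.87% of endothelial-like cells in those groups. The intervals of the heart sham shares, [1.31 to 2.13] in fibroblast-like and [1.68 to 7.47] in endothelial-like cells, overlap. In brain, fibroblast-like cells held 272 CPM in infarct [267 to 276] and 55.9 CPM in peri-infarct [44.6 to 69.2], against 33.6 CPM in sham [23.8 to 46.2]. Brain infarct was 8.07-fold above sham [5.88 to 11.4], and 24.3% of its thinned fibroblast-like cells had a Lox UMI against 1.99% in sham, while 0 of 97 and 0 of 351 thinned endothelial-like cells had one, which allows shares of up to 3.09% and 0.855%. Unthinned, these endothelial-like cells held 38 and 3 Lox UMIs.

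Among mural cells Lox was higher in smooth-muscle-like than in pericyte-like cells. Smooth-muscle-like cells of heart held 185 CPM in infarct and 132 CPM in peri-infarct, against 53.7 CPM in sham, which is 3.44-fold [2.97 to 3.99] and 2.45-fold [2.09 to 2.88]. The heart sham level is near the 42.1 CPM of endothelial-like cells there. Pericyte-like cells of heart held 54.2 CPM in infarct, 14.2 CPM in peri-infarct and 19.2 CPM in sham, beside 49.9, 4.67 and 42.1 CPM in endothelial-like cells of those libraries. With free RNA subtracted, the pericyte log2 ratio of infarct against sham turned from 1.45 to -0.74 and that of infarct against peri-infarct from 1.86 to -0.02. In brain, smooth-muscle-like cells held 26.9 CPM in peri-infarct and 26.8 CPM in sham. Pericyte-like cells of brain held 10.9 CPM in infarct (17 UMIs), 2.92 CPM in peri-infarct (7 UMIs) and 1.43 CPM in sham (6 UMIs).

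Loxl1 (chr9:58287738-58313186, minus strand), which is known for its role in elastic fibres, had the highest level of the lysyl oxidases in heart fibroblast-like cells, at 971 CPM in heart infarct and 771 CPM in peri-infarct, against 300 CPM in sham, or 3.24-fold [3.12 to 3.37] and 2.57-fold [2.48 to 2.68]. Brain fibroblast-like cells held 158 CPM in infarct and 73.2 CPM in peri-infarct, against 78.8 CPM in sham. The brain infarct ratio of 2.01-fold [1.63 to 2.50] in CPM lies at the 2-fold line and was not counted once 1 CPM was added to each side. Pericyte-like cells of heart held 130 and 59.3 CPM in infarct and peri-infarct against 74.7 CPM in sham. Those of brain held 7.72, 2.08 and 1.195 CPM in infarct, peri-infarct and sham, under the 19.3 CPM of endothelial-like cells in brain infarct.

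Loxl2 (chr14:69609068-69695834, plus strand), which acts on basement membrane collagen IV among other substrates, had the highest level of the lysyl oxidases in pericyte-like cells of heart infarct and peri-infarct. Fibroblast-like cells held 298 CPM in heart infarct and 310 CPM in peri-infarct, against 95.1 CPM in sham, 3.13-fold [2.93 to 3.36] and 3.26-fold [3.04 to 3.49]. Pericyte-like cells came close to that with 261 CPM in infarct and 235 CPM in peri-infarct, against 68.3 CPM in sham, 3.82-fold [2.69 to 5.60] and 3.44-fold [2.42 to 5.07]. In heart infarct, 19.5% of thinned pericyte-like cells had a Loxl2 UMI [17.1 to 22.1], against 6.93% in sham [4.01 to 11.0], beside 2.12% and 3.38% of endothelial-like cells. Brain pericyte-like cells held 64.3 CPM in infarct and 12.9 CPM in peri-infarct, against 20.6 CPM in sham, so that infarct was 3.13-fold above sham [2.32 to 4.23]. The log2 ratio of 1.60 ran from 0.53 to 1.69 over the alternatives, the lowest with mural classes merged. Merging added 166 smooth-muscle-like cells, at 149 CPM of Loxl2, to brain sham and 3 such cells to brain infarct. The merged value therefore does not measure pericyte-like cells alone, and 13 of the 14 alternatives stayed at 2-fold or more. Brain fibroblast-like cells held 117 CPM in infarct and 37.3 CPM in peri-infarct, against 75.2 CPM in sham. The brain peri-infarct value, from 56 UMIs, was 0.496 of sham [0.347 to 0.703], which with 1 CPM added is a log2 ratio of -0.99 and just inside 2-fold. Smooth-muscle-like cells of brain held 78.6 CPM in peri-infarct against 149 CPM in sham, the highest Loxl2 level of the brain sham classes.

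Loxl3 (chr6:83034173-83052562, plus strand) had the second largest ratio after Lox in fibroblast-like cells of heart infarct. Fibroblast-like cells held 135 CPM in heart infarct and 57.4 CPM in peri-infarct, against 21.2 CPM in sham, 6.37-fold [5.52 to 7.40] and 2.71-fold [2.34 to 3.15]. In brain they held 35.2 CPM in infarct and 13.3 CPM in peri-infarct, against 16.8 CPM in sham (19 UMIs), with infarct 2.09-fold above sham [1.33 to 3.48] and a log2 ratio between 0.82 and 1.82 over the alternatives. In brain the level was higher in pericyte-like cells: 57.9 CPM in infarct and 36.2 CPM in peri-infarct, against 40.1 CPM in sham. Of the thinned brain pericyte-like cells, 6.85% in infarct and 3.55% in peri-infarct had a Loxl3 UMI, against 3.88% in sham. Of the thinned endothelial-like cells, 0 of 97 in infarct had one, which allows up to 3.09%, 0.875% in peri-infarct, and 0 of 351 in sham, which allows up to 0.855%. Unthinned, they held 8, 7 and 5 Loxl3 UMIs in those groups. Loxl3 shares exonic sequence with Htra2 on the opposite strand, and Htra2 itself ranged between 18.3 and 60.6 CPM in these 3 classes. Any effect of this overlap on either count was not tested. Loxl4 (chr19:42593982-42612813, minus strand) had a highest level of 3.88 CPM, in fibroblast-like cells of heart infarct, and it passed the filter in no comparison.

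In pericyte-like cells of heart the proteinases, Pcolce and Loxl2 were higher after injury. In heart infarct against sham, 8 members passed, 6 were at least 2-fold higher and 1 (Pcolce2) lower, against 7.6% and 8.37% of all genes. The higher ones were Adamts2, Loxl2, Bmp1, Lox, Pcolce and Loxl3. Lox and Loxl3 had 9 UMIs each on the sham side, and the Lox log2 ratio turned to -0.74 with free RNA subtracted. Heart peri-infarct against sham gave 4 higher and 1 lower of 8 (Loxl2, Adamts2, Bmp1 and Pcolce up, Pcolce2 down), against 7.77% and 8.08%. Heart infarct against peri-infarct gave 2 higher (Lox and Loxl1) and 0 lower of 7, against 0.566% and 0.471%. The sham side of the first 2 comparisons rests on 468794 UMIs from shallow cells, which makes its intervals wide, and 5540 CPM of the fibroblast marker list was counted there, against the 703.7 and 610.6 CPM of infarct and peri-infarct. In brain infarct against sham, 4 members passed, with 3 higher (Bmp1, Loxl2 and Pcolce) and 0 lower, against 5.26% and 4.32% of genes. The fibroblast marker list in these cells came to 721.5 CPM in brain infarct and 352.4 CPM in peri-infarct against 222.7 CPM in sham. With free RNA subtracted, the log2 ratios of infarct against sham were 2.53 for Bmp1, 1.52 for Loxl2 and 1.23 for Pcolce. Beyond that subtraction, the part of the list in the ratios was not tested. Brain peri-infarct against sham gave 0 higher and 0 lower of 4, against 1.11% and 0.694%. Brain infarct against peri-infarct gave 2 higher (Bmp1 and Loxl2) and 0 lower of 4, against 3.8% and 2.91%. In heart, Lox, Loxl3 and Pcolce in infarct against sham, Bmp1 and Pcolce in peri-infarct against sham, and Lox and Loxl1 in infarct against peri-infarct dropped under 2-fold in at least 1 alternative. In brain infarct against sham this held for Loxl2, only with mural classes merged, and for Pcolce (lowest 0.99).

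Smooth-muscle-like cells of heart infarct against sham had 5 members higher (Lox, Loxl2, Adamts2, Loxl3 and Bmp1) and Pcolce2 lower of 8, against 4.06% and 5.6% of all genes. The fibroblast marker list in these cells came to 1028 CPM in infarct and 1560 CPM in peri-infarct against 5593 CPM in sham. With free RNA subtracted, the Pcolce2 log2 ratio to sham went from -2.91 to -4.58 in infarct and from -2.51 to -2.46 in peri-infarct. Beyond that subtraction, the part of the list in the ratios was not tested. In heart peri-infarct against sham 2 were higher (Lox and Adamts2) and 1 lower (Pcolce2) of 8, against 2.67% and 4.04%. Heart infarct against peri-infarct gave 1 higher (Loxl3, at 1.03 log2) and 0 lower of 8, against 0.598% and 0.997%. In brain, peri-infarct against sham gave 0 higher and 0 lower of 5, against 2.7% and 6.78%, and the peri-infarct side rests on 98 cells. Of the heart calls, Loxl3 in infarct against sham and Pcolce2 in both comparisons with sham stayed past 2-fold in every alternative, and the others did not.

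**Figure D3:**
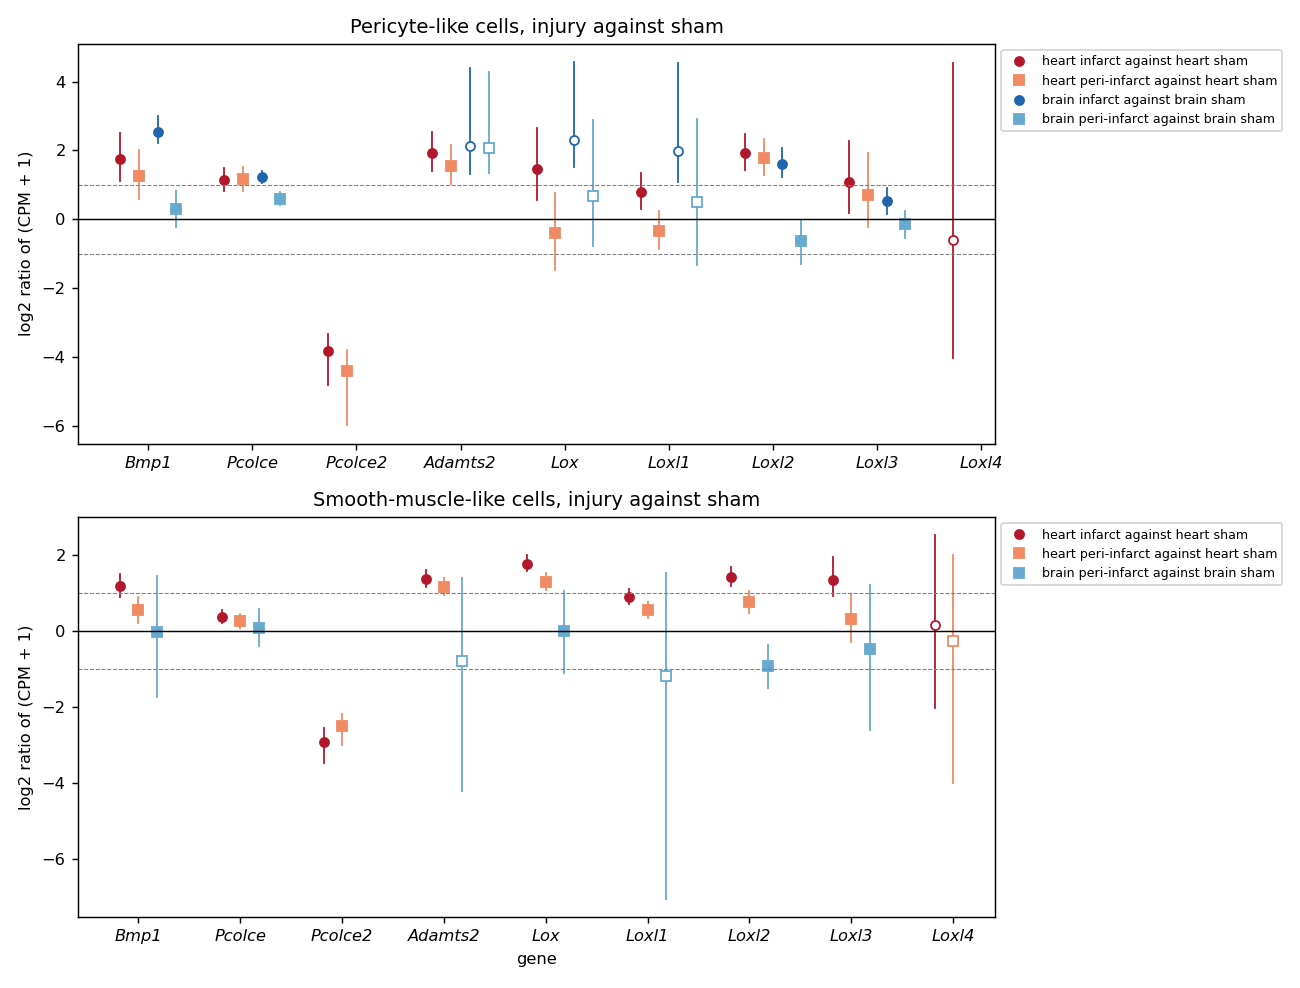
Log2 ratio of (CPM + 1) for each member in pericyte-like cells (upper panel) and smooth-muscle-like cells (lower panel), infarct and peri-infarct each against sham of the same organ, with symbols and 95% counting intervals as in the plot for fibroblast-like cells; members with fewer than 3 UMIs in both groups together are not drawn. Bmp1 in brain infarct pericyte-like cells lies at 2.54, and Pcolce2 lies at -3.81 and -4.41 in heart pericyte-like cells.

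The 2 mural classes differed in which lysyl oxidases they held. Pericyte-like cells were at least 2-fold above smooth-muscle-like cells for Loxl2 and Pcolce and below them for Lox in heart infarct, 2 higher and 1 lower of 7 that passed, against 6.83% and 5.45% of all genes. In heart peri-infarct 4 were higher (Loxl2, Loxl3, Pcolce and Bmp1) and 3 lower (Lox, Pcolce2 and Loxl1) of 8, against 9.78% and 7.63%. Heart sham gave 0 higher and 1 lower (Lox) of 8, against 8.63% and 4.65%. In brain the order for Loxl2 was the other way round. Brain sham had 1 higher (Loxl3) and 2 lower (Lox and Loxl2) of 5, against 21.5% and 7.84%, and brain peri-infarct gave the same 3 members, 1 higher and 2 lower of 5, against 28.1% and 7.59%. Pericyte-like cells of brain sham held 20.6 CPM of Loxl2 against 149 CPM in smooth-muscle-like cells, a ratio of 0.138 [0.104 to 0.182], but 40.1 CPM of Loxl3 against 12.8 CPM, a ratio of 3.13 [1.74 to 6.17]. In heart, Loxl2 and Pcolce in infarct, Bmp1, Pcolce and Loxl1 in peri-infarct and Lox in sham dropped under 2-fold in at least 1 alternative.

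Fibroblast-like cells stood above pericyte-like cells for most members. In heart infarct 5 were at least 2-fold higher (Pcolce2, Lox, Loxl1, Loxl3 and Adamts2) and 0 lower of 8, against 8.09% and 8.46% of genes. Heart peri-infarct gave 5 higher and 0 lower of 8, against 8.74% and 8.98%, and heart sham 5 higher and 0 lower of 8, against 5.67% and 8.28%. Brain infarct gave 3 higher (Lox, Loxl1 and Adamts2) and 0 lower of 7, against 10.3% and 31.4%. Brain peri-infarct gave 6 higher and 1 lower of 7, against 12.1% and 21.2%, and brain sham 6 higher and 1 lower of 7, against 12.7% and 12.5%. The lower member was Loxl3 in both. Lox did not separate the classes in sham heart, at 18.1 CPM in fibroblast-like against 19.2 CPM in pericyte-like cells of heart sham, and separated them 14.9-fold in heart infarct [13.3 to 16.7] and 24.8-fold in brain infarct [15.5 to 42.6]. The pericyte-like levels behind both ratios, 54.2 and 10.9 CPM, compare with 49.9 and 45.8 CPM in endothelial-like cells. With free RNA subtracted the heart infarct log2 ratio of 3.87 became 6.21. In brain infarct the subtraction left no Lox in pericyte-like cells. The change there from 4.51 to 8.12 thus gives a limit set by the added 1 CPM and not a measured ratio. Bmp1 in both sham comparisons and Loxl2 in brain peri-infarct dropped under 2-fold in at least 1 alternative.

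The make-up of the lysyl oxidase family differed with injury. Of all family UMIs in fibroblast-like cells, Lox made 36.5% in heart infarct and 17.9% in peri-infarct, against 4.14% in sham, and Loxl1 made 43.8% and 55.4% against 68.6%. In brain fibroblast-like cells Lox made 46.7% in infarct and 31.1% in peri-infarct, against 16.2% in sham. The whole family came to 2216 and 1391 CPM in heart infarct and peri-infarct against 436 CPM in sham, and to 582 and 180 CPM in brain infarct and peri-infarct against 207 CPM in sham. In brain pericyte-like cells Loxl3 made 41.1% of the family in infarct and 66.9% in peri-infarct, against 63.4% in sham, while Loxl2 made 45.7%, 23.8% and 32.5%. In heart pericyte-like cells Loxl2 made 53.4% in infarct and 68.9% in peri-infarct, against 37.2% in sham [27.0 to 48.3], where 86 family UMIs were counted. Brain smooth-muscle-like cells held mostly Loxl2, 67.3% in peri-infarct [52.9 to 79.7] against 76.4% in sham [69.5 to 82.3]. These intervals overlap, and the peri-infarct share rests on 52 family UMIs.

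**Figure D4:**
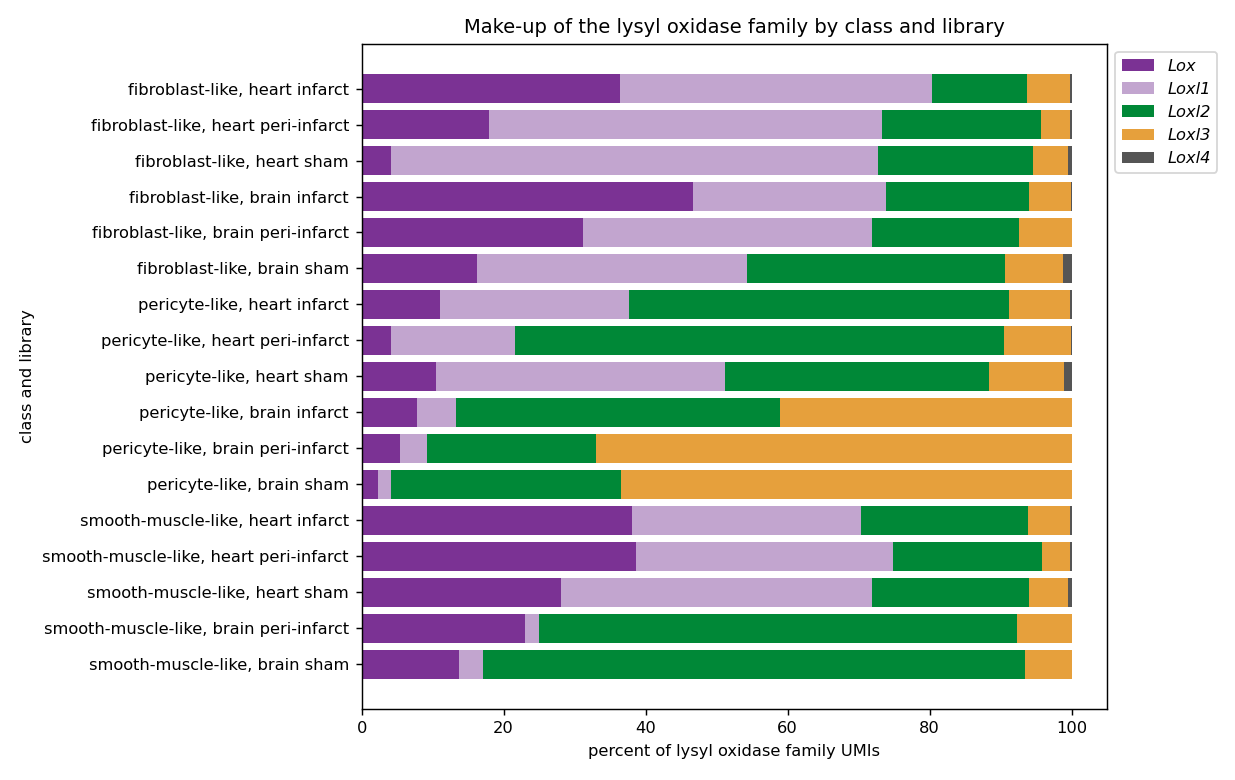
Percent of all lysyl oxidase family UMIs that belong to each member (stacked bars summing to 100%) in fibroblast-, pericyte- and smooth-muscle-like cells of each library (rows). The Lox part widens in fibroblast-like cells of heart infarct (36.5%) against heart sham (4.14%), and the Loxl3 part is widest in pericyte-like cells of brain.

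Within a library, fibroblast-like cells were divided by how many UMIs of the 10 activated fibroblast markers (such as Postn, Cthrc1 and Tnc) they held per 1000 thinned UMIs: 0 to 1, 2 to 4, 5 to 9, and 10 or more. In heart peri-infarct, Lox rose along these bands from 75.1 to 216, 468 and 879 CPM, and Loxl3 from 27.8 to 50.4, 91.0 and 176 CPM. Loxl2 rose less, from 223 to 460 CPM, and Bmp1 from 144 to 238 CPM between the outer bands. Pcolce2 fell from 424 to 271 CPM. In heart infarct Lox went up from 388 to 667, 931 and 1153 CPM and Loxl3 from 63.5 to 205 CPM, while Pcolce2 showed no such fall, with 220 CPM in the lowest and 242 CPM in the highest band. Even the lowest band of heart infarct, with 388 CPM of Lox, was far above the 18.4 CPM of the same band in heart sham. In brain infarct Lox moved from 224 to 394 CPM and Loxl3 stayed between 32.7 and 38.6 CPM. Cells in the higher bands also had more UMIs, a median of 16702.5 in the highest against 8274.5 in the lowest band of heart peri-infarct and 42115 against 30192 in brain infarct; the part of depth was not tested. The bands are cells of 1 library and not replicates.

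**Figure D5:**
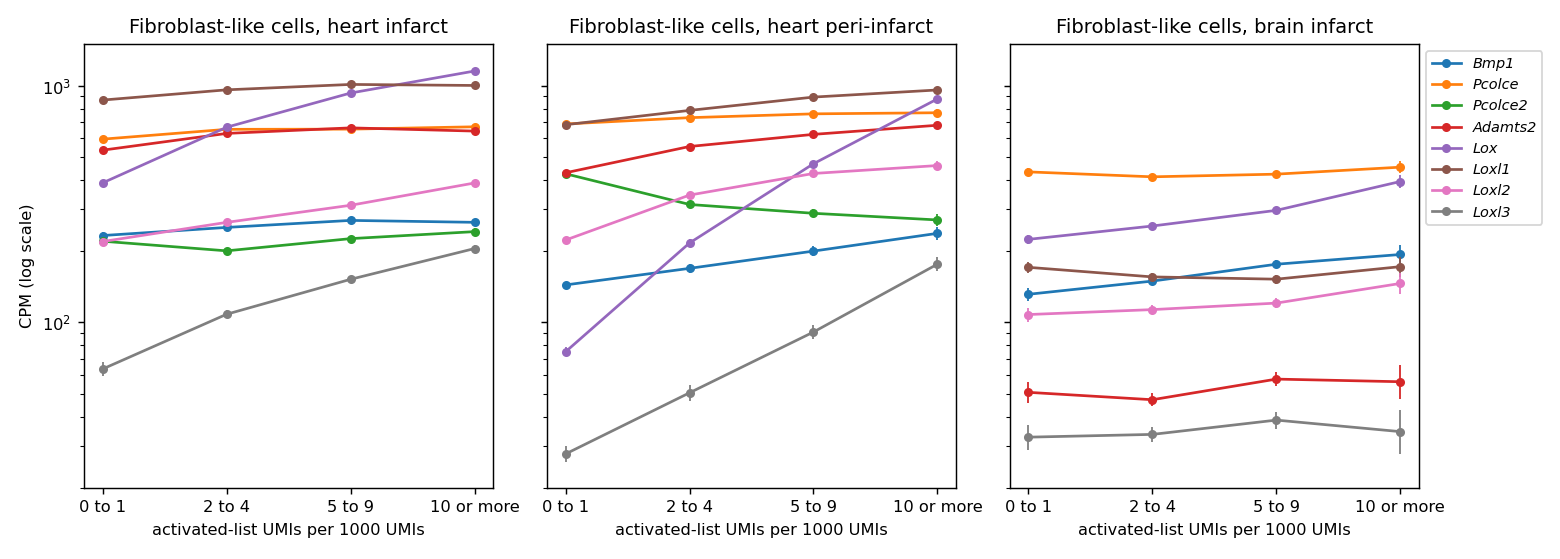
Level of 8 members (7 in brain, without Pcolce2) on a log scale of CPM in fibroblast-like cells of heart infarct, heart peri-infarct and brain infarct, divided by their UMIs of activated fibroblast markers per 1000 UMIs (x axis); vertical lines are 95% counting intervals. Lox climbs from 75.1 to 879 CPM in heart peri-infarct and from 224 to 394 CPM in brain infarct.

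Other genes of the pathway were followed as 2 lists. Of 7 other proteinases that act on procollagen or activate such enzymes (Adamts3, Adamts14, Tll1, Tll2, Mep1a, Mep1b and Furin), Furin, a general proprotein convertase, was the 1 that passed the filter in heart fibroblast-like cells, at 64.7 CPM in infarct against 46.1 CPM in sham. In brain fibroblast-like cells Tll1, a tolloid-like proteinase related to Bmp1, also passed, at 18.4 CPM in infarct against 2.66 CPM in sham. Mep1a and Mep1b had 0 UMIs in all fibroblast-, pericyte- and smooth-muscle-like cells. Of 12 substrates and cofactors, 11 were at least 2-fold higher in fibroblast-like cells of heart infarct against sham and 0 lower. The shares over all genes were 5.89% and 7.02%. Col1a1 stood at 6866 against 1138 CPM, Eln at 2297 against 296 CPM and Fn1 at 2378 against 111 CPM. In brain infarct against sham, 7 of 11 that passed were higher and 3 lower, against 12.3% and 35.6% of all genes. Col3a1 stood at 4952 against 571 CPM, Eln at 685 against 23.0 CPM, and Fmod, a proteoglycan that binds Lox to collagen, at 22.5 against 498 CPM. In pericyte-like cells 8 of 12 were higher and 2 lower in heart infarct against sham, against 7.6% and 8.37% of all genes. In brain infarct against sham 7 of 9 were higher and 0 lower, against 5.26% and 4.32%, and Col1a1 stood at 158 against 5.73 CPM. Postn is also a gate marker of activated fibroblasts.

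Across the 33 class and library sums, the genes most like each member were ranked by Pearson's r of log2(CPM + 10) over 7399 genes, as a description of sums that share libraries and cells. Bmp1 was most like Serpinh1, the collagen chaperone (r = 0.940), then Dbn1 and Col5a2. Adamts2 was most like Col6a2 (r = 0.940), Col6a1 and Col16a1. Pcolce was nearest to Abhd14a (r = 0.953), Mxra8 and Ikbip, and Pcolce2 to Ptx3 (r = 0.982), Pcsk6 and Dpep1, of which Dpep1 is a gate marker of fibroblasts. Lox was most like Wisp1 (r = 0.905), Hdlbp and Ncam1, and Loxl1 like Mmp23 (r = 0.937), Col3a1 and Mmp2. Loxl2 and Loxl3 had looser neighbours, Ndn (r = 0.866), Vgll3 and Sec24d for Loxl2 and Oaf (r = 0.840), Gpr153 and Tmem45a for Loxl3. Loxl4, with its few UMIs, was nearest to Ssc5d (r = 0.850), Svep1 and Frzb. Among the members themselves Adamts2 with Loxl1 had the highest r (0.874) and Pcolce with Pcolce2 the lowest (0.307).

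UMIs of the genes were counted in other classes as well. Mesothelial-like cells, the epicardial cover of the heart, held 293 CPM of Lox in infarct and 174 CPM in peri-infarct against 45.1 CPM in sham, and 254 and 265 CPM of Loxl2 against 90.2 CPM, with 83 cells in sham. Their Pcolce level was 392 and 475 CPM in infarct and peri-infarct against 492 CPM in sham. Arachnoid-like cells of brain held 157 CPM of Adamts2 in peri-infarct against 183 CPM in sham, the highest Adamts2 levels of any brain class with 50 cells, and Loxl2 at 0.844 against 3.54 CPM. Macrophage-like cells held at most 68.2 CPM of any member, with Lox at 65.8 and 7.01 CPM in heart infarct and peri-infarct and Bmp1 at 17.5 and 7.01 CPM. Their whole lysyl oxidase family came to 170.1 and 39.96 CPM in those groups, beside 175.6 and 27.51 CPM in endothelial-like cells. The part of free RNA in these macrophage-like levels was not tested.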

How the data were processed

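The authors deposited 1 matrix of unnormalised UMI counts (genes by barcodes) per library of 10x Genomics 3′ chemistry, so no scaling precedes the steps here; the submitters' processing notes name Cell Ranger 3.0.2, Seurat 3 and the build mm10. Barcodes were kept with at least 500 genes and at most 10% mitochondrial UMIs. Classes came from a gate on 13 marker lists per cell; the gate was set after the data were seen, and the members, lists and markers were chosen with earlier results of these data known. No doublet caller was run: cells with markers of several lists fall out through the margin of 2 markers, and an alternative leaves out the cells with the most UMIs. A fibroblast-like cell was scored by the higher of the fibroblast and activated fibroblast lists. Counts were summed per class and library (at least 50 cells) and scaled to CPM. A gene passed with a mean of at least 10 CPM over both groups and was counted at 2-fold or more on (CPM + 1), which understates folds of low genes. Intervals are exact Poisson, conditional binomial or Clopper-Pearson (scipy 1.17.1, numpy 2.4.6, pandas 2.3.3, Python 3.11.15), and edgeR 4.0.16 gave TMM factors only. Shares used cells thinned to 1000 UMIs, with shallower cells left out, and a count of 0 was given an upper limit of 3 counts. The 9 members are always named; pathway genes are given by counts with values for some, and the 3 genes most like each member by correlation. The fold rule was tested on simulated counts. Positions follow GENCODE vM21. Alternatives covered the gate, cell filters, scaling, averaging, the CPM filter, the pseudocount, free RNA, shared barcodes, thinning and merged mural classes.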

Additional observations from a re-analysis of the deposited data

Results flagged for a closer look

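For 3 members the ratio had opposite signs in heart and brain with both counting intervals clear of 1. Each organ has 1 library per group, so the difference between organs was not tested. Adamts2 in fibroblast-like cells had a log2 ratio of 1.75 for heart infarct against heart sham and -0.96 for brain infarct against brain sham, and of 0.28 for heart infarct against heart peri-infarct and -1.12 for brain infarct against brain peri-infarct. Pcolce in fibroblast-like cells had 0.74 for heart infarct against heart sham and -0.86 for brain infarct against brain sham, and 0.89 for heart peri-infarct against heart sham and -0.16 for brain peri-infarct against brain sham. In brain infarct against sham the median log2 ratio over all genes was itself -0.54 in these cells. With TMM factors the brain infarct against sham values were -0.14 for Adamts2 and -0.03 for Pcolce. Pcolce in brain peri-infarct against sham was 0.07 with these factors, so that its opposite sign was lost. Loxl2 in peri-infarct against sham had 1.69 in heart and -0.99 in brain fibroblast-like cells, 1.77 in heart and -0.63 in brain pericyte-like cells, and 0.75 in heart and -0.91 in brain smooth-muscle-like cells. In infarct against peri-infarct it had -0.06 in heart and 1.62 in brain fibroblast-like cells. The heart value turned to 0.03 with TMM factors, ranged up to 0.11 over the alternatives and was also positive without the cells of most UMIs. In smooth-muscle-like cells the heart value of 0.75 ran down to -0.03.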

How the results depend on the processing

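Of 102 members counted at 2-fold or more over all comparisons, 73 stayed at 2-fold or more in every alternative and 29 did not. Of 361 recomputed counts of such members, 317 stayed within 1.5 times the reported one. The others follow, with the share of all genes at least 2-fold apart in brackets, first for infarct or peri-infarct against sham. Brain infarct fibroblast-like cells had 5 with TMM factors (45.2%), where all ratios shift by 0.84 log2 units. They had 5 with the gate on thinned cells (43.4%). Brain peri-infarct fibroblast-like cells had 1 without the low filter (10%), with the thinned gate (16.7%), with free RNA subtracted (17.7%) or without shared barcodes (10.5%). They had 2 without the cells of most UMIs (14.6%). Heart infarct pericyte-like cells had 4 with means over cells (16.3%) or a 50 CPM filter (11.8%). Heart peri-infarct ones had 3 with means over cells (16.8%). Without the low filter, brain infarct pericyte-like cells had 6 (7.18%), peri-infarct ones 1 (2.61%) and brain smooth-muscle-like cells 2 (12.1%). The last had 1 with the stricter gate (11.9%). Smooth-muscle-like cells had 3 in heart infarct with means over cells (9.71%). In heart peri-infarct they had 1 with means over cells (7.7%), the stricter gate (6.98%) or 20% mitochondrial UMIs (6.04%). For infarct against peri-infarct, heart pericyte-like cells had 1 with the thinned gate (1.85%) or the 50 CPM filter (0.497%). They had 0 with free RNA subtracted (0.749%) or mural classes merged (0.953%). Heart smooth-muscle-like cells had 2 with the stricter (2.26%) or thinned gate (2.36%) and 3 with 20% mitochondrial UMIs (2.39%). They had 0 without the cells of most UMIs (1.59%), with a 50 CPM filter (1.06%) or a pseudocount of 5 CPM (1.08%). They also had 0 with free RNA subtracted (1.99%) or merged classes (0.953%). Brain pericyte-like cells had 1 with the 50 CPM filter (4.88%) and 4 without a filter (6.58%). Pericyte- against smooth-muscle-like cells gave 2 in heart sham with the stricter gate (23.5%) or at least 1000 genes (28.4%). They gave 0 there without the cells of most UMIs (11.9%) or with the 50 CPM filter (10.2%), and 1 in heart infarct with the thinned gate (10.6%). With the 50 CPM filter they gave 0 in brain peri-infarct (30.8%) and 1 in brain sham (27.5%), which had 6 without a filter (15.5%). Fibroblast- against pericyte-like cells gave 6 with TMM factors (38.6%) and 5 with means over cells (46.6%) in brain infarct. With the 50 CPM filter they gave 2 in brain sham (24.4%) and 2 in brain peri-infarct (33.6%). Among 1355 recomputed ratios of members counted at 2-fold or more, 2 changed sign, both Lox in pericyte-like cells with free RNA subtracted: -0.74 for heart infarct against sham and -0.02 for heart infarct against peri-infarct. Among 1140 of members under 2-fold, 60 changed sign. The causes were not tested, apart from the filters, which change the members admitted. Unthinned cells moved 117 of 153 shares. No paired analysis was possible because each group has 1 library and the labels carry no replicate numbers.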
